A study of Mus musculus with 21 samples.

Results

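Fatty acid oxidation and the targets of the peroxisome proliferator-activated receptors (PPARs) were examined as a module of 36 named genes, chosen by gene name, out of 37310 genes measured in bulk RNA sequencing of sorted mouse intestinal Lgr5 cells. Each of the 36 names matched 1 row of the gene tables, and all 36 had enough counts to be tested. Lgr5 is a marker of crypt base stem cells. The mice carried Lgr5EGFPcre-ERT2, in which the Lgr5 promoter drives a green fluorescent protein and an inducible Cre, and the brightest green cells were sorted in bulk. All were 3 months old and had eaten their diet since weaning. The study asks how diet alters these stem cells.

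There were 7 groups of 3 libraries. AIN_VdrKO are mice on AIN76A, a purified control diet, labelled as lacking the vitamin D receptor, Vdr. AINlowVitD mice ate AIN76A holding 0.11 IU/g vitamin D. NWD1VitD mice ate NWD1 to which vitamin D was added at 2.3 IU/g, and for NWD1Ca mice calcium was added to NWD1 at 7.0 mg/g. NWD2, NWD1 and AIN mice ate the diets NWD2, NWD1 and AIN76A, the last of these being the control. The labels state these amounts per g body weight, and the sources used here do not state what NWD1 and NWD2 contain. NWD1Ca held females only and AIN_VdrKO males only, while the other 5 groups held both sexes. The libraries labelled AIN_VdrKO had 7353 to 34677 counts on Vdr, against 16965 to 35332 in AIN. Depth in AIN_VdrKO ran from 22562419 to 115435120 gene counts. Relative to gene counts (CPM, here without the scaling used below), Vdr was at 297.1, 490.6 and 300.4 in AIN_VdrKO. It was at 341.7, 397.3 and 816.0 in AIN and at 762.7 to 1653 in NWD1 and NWD2. In NWD1Ca, NWD1VitD and AINlowVitD it was at 109.5 to 294.3, below each library labelled AIN_VdrKO. The sources used here do not state which part of the gene was deleted, so these counts do not check the label, and AIN_VdrKO names the libraries so labelled.

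Beta-oxidation shortens fatty acids in mitochondria and peroxisomes. Long-chain fatty acids are taken up, activated to acyl-CoA and carried into mitochondria by the carnitine shuttle. A cycle of dehydrogenation, hydration, a second dehydrogenation and thiolysis then releases acetyl-CoA, and the electrons pass to the respiratory chain. PPAR-alpha and PPAR-delta are nuclear receptors that bind fatty acids and, as partners of retinoid X receptors, activate many of these genes. In the mouse intestine the pathway is known to respond to dietary fat and fasting and to affect the function of Lgr5 stem cells.

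The libraries fell into a pair of sets, each holding both base diets, with AIN, NWD1 and NWD2 in the first and NWD1Ca, NWD1VitD and AINlowVitD in the second. On the first principal component, which held 43.9% of the variance, all first-set libraries lay at -38.6 or below and all second-set libraries at 71.2 or above, while the libraries labelled AIN_VdrKO lay between them at -21.9 to 43.8. Added spike-in RNAs differed as well: none of 78 passed the test within a set, against 44 (56.4%) for AINlowVitD against AIN, 51 (65.4%) for NWD1Ca against NWD1, 54 (69.2%) for NWD1VitD against NWD1, 36 (46.2%) for AIN_VdrKO against AINlowVitD and 7 (8.97%) for AIN_VdrKO against AIN. These spike-in tests left out AIN 2, in which spike-ins took 1.349e-05% of counts; they took 24.69% in NWD1 1 and 20.44% in NWD1 2, and 6.48% or less in each other library. Mitochondrial rRNA took 2.949% to 5.067% of gene counts in the second set, 1.379% to 2.804% in AIN_VdrKO and 0.2335% to 0.9648% in the first set, and its part in the results was not tested. In every comparison across the sets, diet and set cannot be told apart. The libraries labelled AIN_VdrKO also differed in these measures from AIN and AINlowVitD. In comparisons with them the label and these differences cannot be told apart either. Library depth was 19889795 to 115435120 gene counts.

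The sorted cells carried Lgr5 in each group, at a mean of 34.1 ± 10.5 CPM in the libraries labelled AIN_VdrKO, 19.97 ± 13.8 in AINlowVitD, 19.9 ± 6.702 in NWD1VitD, 21.5 ± 4.62 in NWD1Ca, 57.4 ± 26.4 in NWD2, 62.1 ± 18.5 in NWD1 and 26.4 ± 17.99 in AIN (SD, n = 3 each). CPM are counts relative to library size after scaling by the trimmed mean of M values (TMM). Markers of other intestinal cells were present too. The summed CPM of 16 enterocyte genes, which mark absorptive cells, was 2106 to 7441 in AIN_VdrKO, 5769 to 11266 in AINlowVitD, 3472 to 8478 in NWD1VitD, 3598 to 7161 in NWD1Ca, 1701 to 14507 in NWD2, 910 to 3587 in NWD1 and 7923 to 13878 in AIN. The 8 goblet genes summed to 35292 CPM or more in each second-set library and to 29318 or less in each other library, and the 10 enteroendocrine genes to 3284 or more and 2611 or less. The 8 Paneth genes overlapped, at 10655 to 68538 CPM in the second set, 8305 to 35647 in AIN_VdrKO and 3078 to 11876 in the first set. None of the listed cell type markers was at 0 in every library. In bulk RNA, fewer cells of a type and less RNA per cell cannot be told apart.

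In TPM, the deposited values per unit of gene length, averaged over the 21 libraries, the module was led by Acaa2 (677 ± 422, SD), the mitochondrial thiolase, Etfb (595 ± 160.3), a subunit of the electron transfer flavoprotein, Acsl5 (338 ± 304), an acyl-CoA synthetase, Etfa (314 ± 183) and Ucp2 (297 ± 205), an inner membrane carrier. Lowest were Pdk4 at 4.66 ± 7.13 TPM, Acaa1b at 6.10 ± 5.35, Acot2 at 7.85 ± 5.79 and Ppard at 8.20 ± 2.51. The order differed between groups, and mean TPM was higher for Etfb than for Acaa2 in AIN_VdrKO (691 and 675), AINlowVitD (511 and 302), NWD1VitD (407 and 276) and NWD1Ca (491 and 353). Ppara stood at 13.0 ± 7.17 TPM. Across libraries the steadiest member in CPM was Decr1, whose highest library was 2.04 times its lowest. The least steady were Acot1 (77.5 times), Pdk4 (41.2 times), Acaa1b (26.0 times), Angptl4 (20.7 times) and Acot2 (17.5 times). The summed CPM of the 36 members was 5086 to 6834 in AIN_VdrKO, 5511 to 7353 in AINlowVitD, 5144 to 6299 in NWD1VitD, 5364 to 6254 in NWD1Ca, 6284 to 10353 in NWD2, 5443 to 7941 in NWD1 and 8206 to 9210 in AIN. These genes are grouped by role in the map of all members by library.

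**Figure D1:**
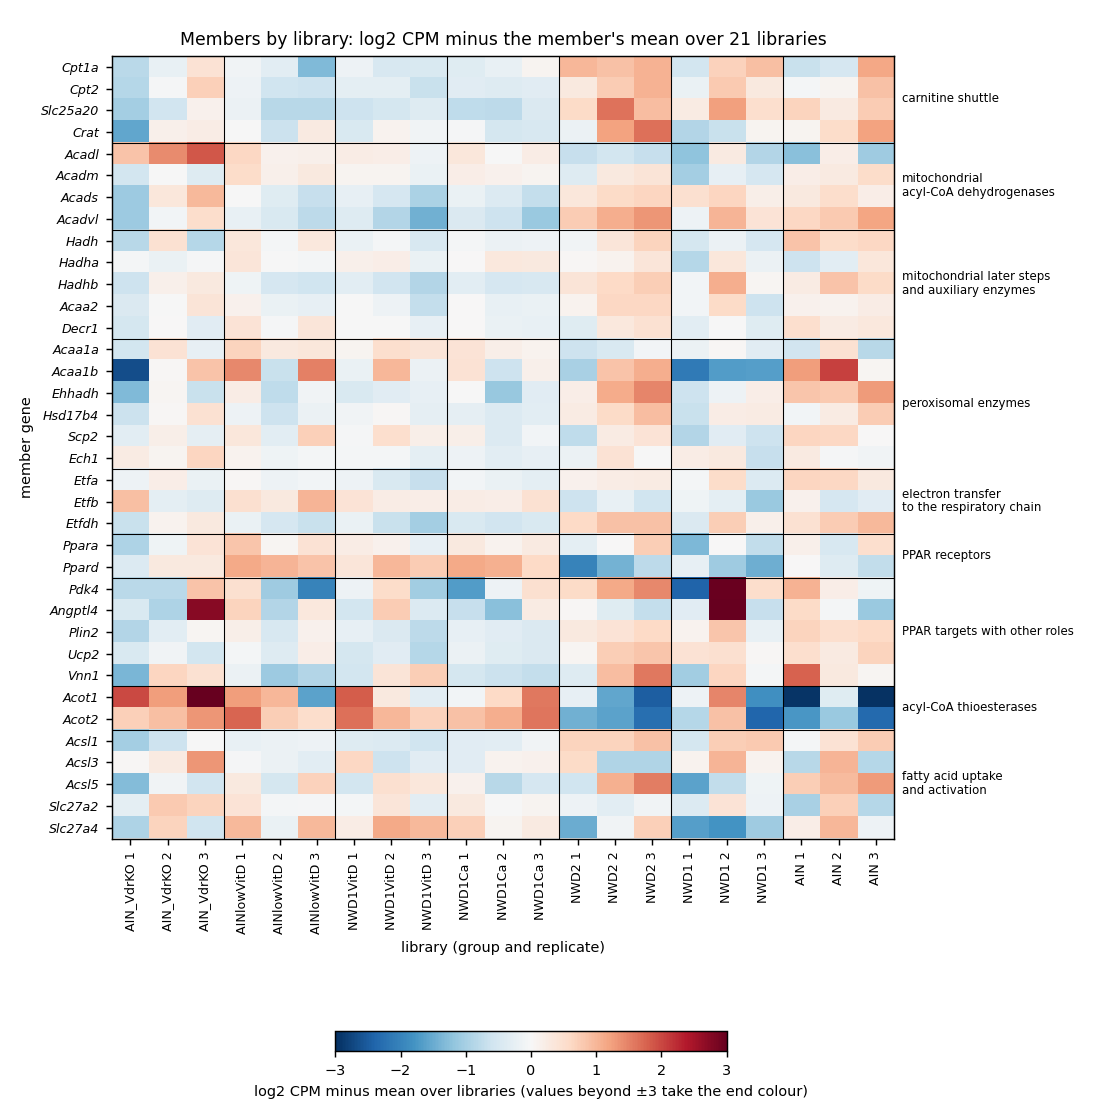
Each cell is the log2 CPM of 1 member (rows, by role) in 1 library (columns, by group) minus that member's mean over the 21 libraries; red is higher and blue lower. Slc25a20, Acadvl and Etfdh are mostly red in NWD2, NWD1 and AIN and blue in NWD1VitD, NWD1Ca and AINlowVitD, Ppard and Acot2 run the other way, and Pdk4 and Angptl4 are darkest in the library NWD1 2.

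Of the 9 comparisons, members passed the test in 4, all of which cross the sets or use the libraries labelled AIN_VdrKO. Passing means an edgeR adjusted p under 0.05 over the 16050 genes tested. In AINlowVitD against AIN, 2 members rose and 6 fell, 22.2% of the module, where 31.3% of all genes passed (15% rising and 16.3% falling). In NWD1VitD against NWD1, 4 rose and 8 fell, or 33.3%, against 40.5% of all genes (19.9% and 20.6%). In NWD1Ca against NWD1, 3 rose and 2 fell, or 13.9%, against 30.6% of all genes (15.7% and 14.9%). In the libraries labelled AIN_VdrKO against AIN, 2 rose and 2 fell, or 11.1%, against 12.5% of all genes (7.43% and 5.08%). In this edgeR fit none of these 4 shares exceeded that of all genes. DESeq2 called 11 (30.6%), 15 (41.7%), 8 (22.2%) and 10 (27.8%) members in these comparisons, against 35.5%, 44.8%, 35.4% and 19% of all genes. In AIN_VdrKO against AIN its share of members was thus the higher one. So it was there in edgeR with no term for sex (27.8% against 17.4%) or with DESeq2's size factors (16.7% against 13.4%). Without AIN 3 it was the lower one (0% against 6.22%). With no filter on low counts the members' share was higher in all 4, at 27.8%, 41.7%, 27.8% and 19.4% against 17.6%, 23.2%, 18% and 8.55%. Those last shares are over 27918 genes in place of 16050, while the members stayed at 36. The genes called were 4903, 6486, 5035 and 2387, against 5031, 6508, 4909 and 2008 with the filter. The shares with and without the filter are thus not on the same base. The median log2 fold change of the members was -0.36 in AINlowVitD against AIN (all genes -0.10), -0.05 in NWD1VitD against NWD1 (all genes -0.03), -0.14 in NWD1Ca against NWD1 (all genes -0.04) and -0.32 in AIN_VdrKO against AIN (all genes -0.01). The comparisons with AIN share its libraries, as those with NWD1 share its libraries, so the same direction in several of them is not independent.

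No member passed in the other 5 comparisons under edgeR, and the background was thin as well. For NWD1 against AIN 0.991% of all genes passed; 9 members (25%) had an unadjusted p under 0.05, against 15.1% of all genes, and DESeq2 called 5, all lower, against 5.43% of all genes. The members' median was -0.26, against -0.04 for all genes. For NWD2 against AIN 0% of genes passed, 1 member (2.78%) had an unadjusted p under 0.05 (6.85% of genes), and DESeq2 called none (0.025% of genes); the members' median was 0.02, against 0.00 for all genes. For NWD2 against NWD1 0.00623% of genes passed, 10 members (27.8%) had an unadjusted p under 0.05 (10.7% of genes), and DESeq2 called 2, both higher (2.15% of genes); the members' median was 0.36, against 0.00. For NWD1VitD against NWD1Ca 0% of genes passed, 1 member (2.78%) had an unadjusted p under 0.05 (2.3% of genes) and DESeq2 called none (0.0187% of genes), with medians of -0.04 and -0.03. For AIN_VdrKO against AINlowVitD 3.06% of genes passed, 2 members (5.56%) had an unadjusted p under 0.05 (20.1% of genes) and DESeq2 called none (7.28% of genes), with a members' median of -0.02 against 0.13.

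**Figure D2:**
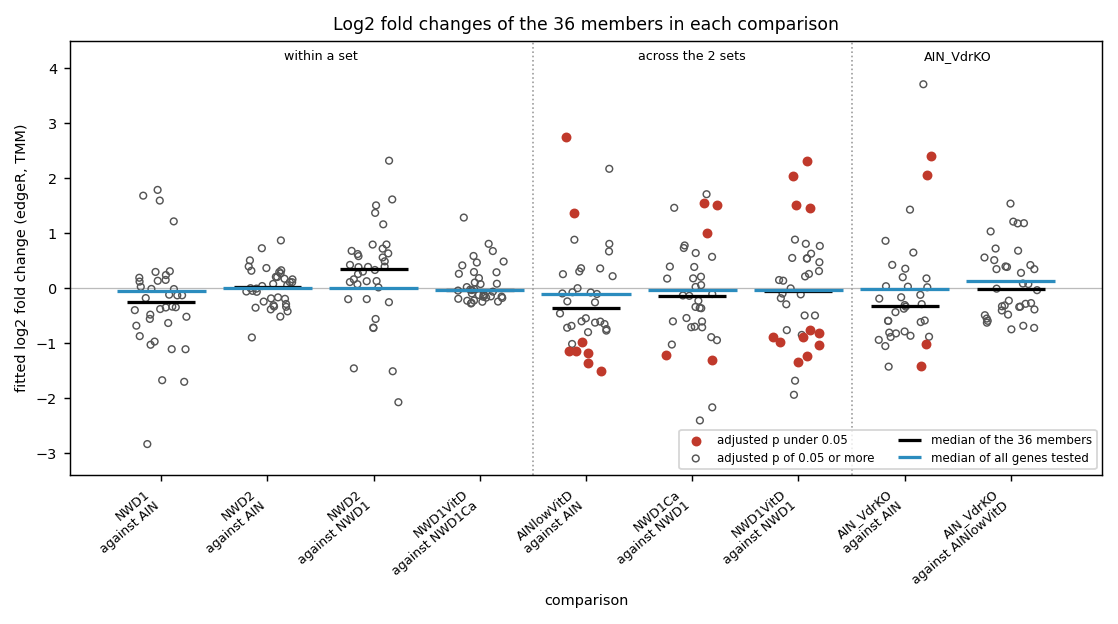
Points are the fitted log2 fold changes of the 36 members (vertical axis) in each of the 9 comparisons (horizontal axis); filled points passed edgeR at an adjusted p under 0.05, and bars mark the median of the members (black) and of all 16050 genes tested (blue). Filled points appear in AINlowVitD against AIN (8), NWD1Ca against NWD1 (5), NWD1VitD against NWD1 (12) and AIN_VdrKO against AIN (4), on both sides of 0.

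The split of rises and falls depended on the unit. When limma was run on log2(TPM + 1), the median of all genes itself moved by -0.65 in AINlowVitD against AIN, -0.95 in NWD1VitD against NWD1, -0.78 in NWD1Ca against NWD1, -0.13 in AIN_VdrKO against AIN and 0.63 in AIN_VdrKO against AINlowVitD. There 1 member rose and 22 fell in AINlowVitD against AIN, 63.9% of the module, where 733 genes (4.57%) rose and 7393 (46.1%) fell, 50.6% in all, against 2407 and 2624 with TMM. In NWD1VitD against NWD1 none rose and 26 fell, 72.2% of the module, with 699 (4.36%) and 9673 (60.3%) of all genes, 64.6% together, against 3200 and 3308 with TMM. In NWD1Ca against NWD1 none rose and 23 fell, or 63.9%, with 821 (5.12%) and 8266 (51.5%) of all genes, 56.6% together, against 2513 and 2396. For AIN_VdrKO against AIN the split of members was 3 and 4, or 19.4%, with 658 (4.1%) and 678 (4.22%) of all genes, 8.32% together, against 1192 and 816. For AIN_VdrKO against AINlowVitD it was 9 and 0, or 25%, with 4880 (30.4%) and 331 (2.06%) of all genes, 32.5% together, against 110 and 381. Members' medians on this scale were -1.41 in AINlowVitD against AIN, -1.56 in NWD1VitD against NWD1 and -1.38 in NWD1Ca against NWD1, each lower than that of all genes. On this scale the members' share of calls was above that of all genes in AINlowVitD against AIN, NWD1VitD against NWD1, NWD1Ca against NWD1 and AIN_VdrKO against AIN, and below it in AIN_VdrKO against AINlowVitD. In that order adding 0.1 gave shares of 63.9% against 53.9%, 69.4% against 65.5%, 63.9% against 56.8%, 19.4% against 8.19% and 27.8% against 39.5%. Adding 1 shrinks log2 differences most for genes at low TPM, so genes at unlike levels are not shrunk alike. The part of the added value in the members' lower medians was not tested. The 10 most abundant genes of a library took 14.13% to 20.45% of gene counts in the second set and 5.332% to 8.37% in the first; their part in this shift was not tested.

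Single libraries moved the counts, and the share of all genes called in the same fit stands in brackets. In AINlowVitD against AIN the 8 calls became 5 without AIN 3 (20.2%), 4 without AINlowVitD 2 (24.5%) and 4 without AINlowVitD 3 (20.9%). In NWD1VitD against NWD1 the 12 became 6 without NWD1VitD 2 (30.5%), 5 without NWD1VitD 3 (30.4%) and 8, all of them rises, without NWD1 2 (31.7%). In NWD1Ca against NWD1 the 5 became 9 without NWD1 1 (36.3%), 2 without NWD1 3 (15.8%) or NWD1Ca 3 (21.8%), and 3 without NWD1Ca 1 (22.6%) or NWD1Ca 2 (23%). In AIN_VdrKO against AIN the 4 became 7 without AIN 2 (16.7%), 0 without AIN 3 (6.22%) and 2 without AIN_VdrKO 1 (10.2%). AIN 3 was the only male in AIN, and NWD1 3 the only female in NWD1. Without AIN 3, group and sex coincided in AIN_VdrKO against AIN, as they did without NWD1 3 in NWD1Ca against NWD1. In fits of either pair of groups alone, the sex term made the difference rest on AIN 3 or NWD1 3. For calls lost in these fits, the library and sex cannot be told apart. Where no member passed, leaving out AIN 3 gave 1 in NWD2 against AIN (5.69%), leaving out NWD2 1 gave 3 (2.13%) and NWD1 3 gave 1 (2.18%) in NWD2 against NWD1, and leaving out AIN_VdrKO 1 gave 3 in AIN_VdrKO against AINlowVitD (12.1%).

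Of the receptors, Ppard, which encodes PPAR-delta, was higher in the second set. It measured 51.1, 46.98 and 41.7 CPM in AINlowVitD, 29.5, 46.3 and 39.2 in NWD1VitD and 51.1, 48.5 and 34.8 in NWD1Ca. It had 17.2, 28.2 and 28.3 CPM in the libraries labelled AIN_VdrKO, 5.79, 8.59 and 13.4 in NWD2, 19.6, 10.97 and 8.29 in NWD1 and 23.2, 17.7 and 13.8 in AIN. Each second-set library lay above each of the other 12. Ppard rose in AINlowVitD against AIN (log2 fold change 1.37 ± 0.33 SE, adjusted p = 0.0049), in NWD1Ca against NWD1 (log2 fold change 1.56 ± 0.38 SE, adjusted p = 0.00541) and in NWD1VitD against NWD1 (log2 fold change 1.51 ± 0.34 SE, adjusted p = 0.00179). All 3 calls were lost on the log2(TPM + 1) scale, with differences of 0.19, 0.34 and 0.03, and that for NWD1Ca also without NWD1 3 (1.02). In NWD2 against AIN it had the smallest p of the module and did not pass (log2 fold change -0.897 ± 0.33 SE, adjusted p = 0.719), although the libraries did not overlap.

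Ppara, which encodes PPAR-alpha, did not pass in any comparison. Its level was 49.8, 29.2 and 37.4 CPM in AINlowVitD, 32.4, 30.3 and 23.5 in NWD1VitD and 34.1, 30.1 and 33.6 in NWD1Ca. In the libraries labelled AIN_VdrKO it was 14.7, 25.5 and 37.3 CPM, in NWD2 22.9, 28.01 and 46.2, in NWD1 10.9, 28.05 and 16.8 and in AIN 31.1, 19.9 and 39.3. The libraries NWD1 1 and AIN_VdrKO 1 were the lowest of the 21, and the groups' ranges overlapped, except that AINlowVitD lay above NWD1 and NWD1Ca above NWD1.

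The thioesterases Acot1 and Acot2, which split acyl-CoA into fatty acid and CoA in the cytosol and in mitochondria, are close paralogs. Of the 50-base windows of the longest Acot1 transcript 23.7% also occur in Acot2, and 24.5% the other way, so the share of reads given to each is uncertain. Acot2 had 13.97, 15.8 and 21.4 CPM in the libraries labelled AIN_VdrKO, 28.7, 14.1 and 12.3 in AINlowVitD, 26.9, 17.1 and 13.8 in NWD1VitD and 15.5, 18.002 and 25.97 in NWD1Ca. It had 3.16, 2.798 and 1.78 CPM in NWD2, 4.74, 15.6 and 1.64 in NWD1 and 2.53, 3.91 and 1.69 in AIN. Among the first-set libraries NWD1 2 alone reached the second-set range. Acot2 rose in AINlowVitD against AIN (log2 fold change 2.75 ± 0.58 SE, adjusted p = 0.00203), a call kept under every alternative run. It also rose in AIN_VdrKO against AIN (log2 fold change 2.41 ± 0.67 SE, adjusted p = 0.023), which was lost without AIN 3 (1.78) or AIN_VdrKO 3 (2.21). In NWD1VitD against NWD1 it rose with overlapping groups (log2 fold change 1.46 ± 0.56 SE, adjusted p = 0.0443), a call lost on the log2(TPM + 1) scale (0.21), in a fit of those groups alone (1.67), and without NWD1 1 (1.22), NWD1 3 (0.87), NWD1VitD 1 (1.16) or NWD1VitD 2 (1.44). Acot1 spanned 1.31 to 101 CPM over the 21 libraries and did not pass in any comparison; its largest fold was in AIN_VdrKO against AIN (log2 fold change 3.71 ± 1.21 SE, adjusted p = 0.0513).

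In the carnitine shuttle, Slc25a20, the carrier that exchanges acylcarnitine for carnitine across the inner mitochondrial membrane, was lower in the second set. It had 61.4, 39.3 and 39.2 CPM in AINlowVitD, 45.4, 48.2 and 52.8 in NWD1VitD and 40.7, 40.3 and 51.2 in NWD1Ca. It had 34.2, 46.6 and 75.9 CPM in AIN_VdrKO, 103, 216 and 133 in NWD2, 82.9, 164 and 99.01 in NWD1 and 109.6, 83.03 and 117 in AIN. Each second-set library lay below each first-set library. Slc25a20 fell in NWD1Ca against NWD1 (log2 fold change -1.31 ± 0.36 SE, adjusted p = 0.011) under every alternative run. It also fell in NWD1VitD against NWD1 (log2 fold change -1.23 ± 0.33 SE, adjusted p = 0.00631), a call lost without NWD1 2 (-0.9003), and in AINlowVitD against AIN (log2 fold change -1.14 ± 0.33 SE, adjusted p = 0.0138), lost without AIN 1 (-0.901), AINlowVitD 2 (-1.04) or AINlowVitD 3 (-0.96).

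Cpt1a, the outer membrane transferase that commits fatty acids to the shuttle, did not pass in any comparison. Its level was 97.98, 148 and 231 CPM in AIN_VdrKO, 158, 138 and 67.97 in AINlowVitD, 154, 122 and 124 in NWD1VitD and 133, 148 and 181 in NWD1Ca. It was 339, 315 and 355 CPM in NWD2, 117, 277 and 322 in NWD1 and 107, 121 and 382 in AIN. NWD2 was high and even, while NWD1 and AIN each mixed high and low libraries. In NWD2 against AIN, where Cpt1a had the second smallest p of the module, the result was log2 fold change 0.73 ± 0.45 SE, adjusted p = 0.736. The test was passed without AIN 3 (1.87), and without AIN 1, AIN 2 and NWD1 1 the difference turned to -0.25. Crat, which transfers acetyl and short acyl groups to carnitine, was second in NWD2 against NWD1, with 46.6, 122 and 166 CPM in NWD2 and 28.9, 33.1 and 55.4 in NWD1 (log2 fold change 1.51 ± 0.46 SE, adjusted p = 0.19). Those groups overlapped through NWD2 1, and without that library (1.88) or without a filter on low counts (1.53) Crat passed. Cpt2, the inner membrane transferase, ranged over 90.03 to 338 CPM and passed nowhere.

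The mitochondrial acyl-CoA dehydrogenases catalyse the first step of each cycle and are named for the chain length they favour. Acadvl, for very long chains, had 82.4, 69.9 and 56.4 CPM in AINlowVitD, 73.6, 52.5 and 35.4 in NWD1VitD and 71.5, 62.4 and 44.7 in NWD1Ca. It had 164, 205 and 243 CPM in NWD2, 86.2, 195 and 128 in NWD1 and 149, 167 and 218 in AIN. Each second-set library lay below each first-set library, and the libraries labelled AIN_VdrKO, at 45.6, 91.1 and 138 CPM, spanned the gap. Acadvl fell in AINlowVitD against AIN (log2 fold change -1.36 ± 0.38 SE, adjusted p = 0.0105), in NWD1VitD against NWD1 (log2 fold change -1.34 ± 0.37 SE, adjusted p = 0.00839) and in NWD1Ca against NWD1 (log2 fold change -1.21 ± 0.41 SE, adjusted p = 0.0296). Calls were lost in AINlowVitD against AIN without AIN 3 (-1.14) or AINlowVitD 3 (-1.201), and in NWD1VitD against NWD1 without NWD1 2 (-0.95) or NWD1VitD 3 (-1.11). In NWD1Ca against NWD1 the call was lost without NWD1 2 (-0.91), NWD1 3 (-1.31), NWD1Ca 2 (-1.25) or NWD1Ca 3 (-1.04), and in a fit of those groups alone (-1.14).

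Acadl, for long chains, stood out in the libraries labelled AIN_VdrKO, with 297, 439 and 592 CPM against 68.8, 188 and 77.6 in AIN. In CPM all 3 lay above each of the 18 other libraries, whose highest was AINlowVitD 1 at 253 CPM. In TPM they lay above AIN, at 202.6 or more against 179.8 or less, but overlapped NWD1, which reached 280.0. Acadl rose in AIN_VdrKO against AIN (log2 fold change 2.06 ± 0.45 SE, adjusted p = 0.00523), a mean of 443 ± 148 CPM against 111 ± 66.4 (SD, n = 3 each). The call was lost without AIN 3 (1.73) and in a fit of those groups alone (2.56). Against AINlowVitD, at 253, 179 and 181 CPM, it had the smallest p of the module in that comparison without passing (log2 fold change 1.18 ± 0.43 SE, adjusted p = 0.14); it passed on the log2(TPM + 1) scale (2.05), without a filter on low counts (1.24) and without AIN_VdrKO 1 (1.402). Acadm, for medium chains, came second there, with 84.9, 122 and 94.6 CPM in AIN_VdrKO and 182, 138 and 152 in AINlowVitD (log2 fold change -0.59 ± 0.27 SE, adjusted p = 0.222); on the log2(TPM + 1) scale this difference turned to 0.33. Acads, for short chains, fell in NWD1VitD against NWD1 (log2 fold change -0.98 ± 0.35 SE, adjusted p = 0.0324), and the call was lost without NWD1 1 (-0.95), NWD1 2 (-0.85), NWD1VitD 2 (-0.95) or NWD1VitD 3 (-0.81). Its mean was 37.8 CPM in NWD1VitD and 40.9 in NWD1Ca, against 74.3 in NWD1, and the NWD1Ca libraries did not overlap NWD1 either (log2 fold change -0.95 ± 0.39 SE, adjusted p = 0.0719).

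**Figure D3:**
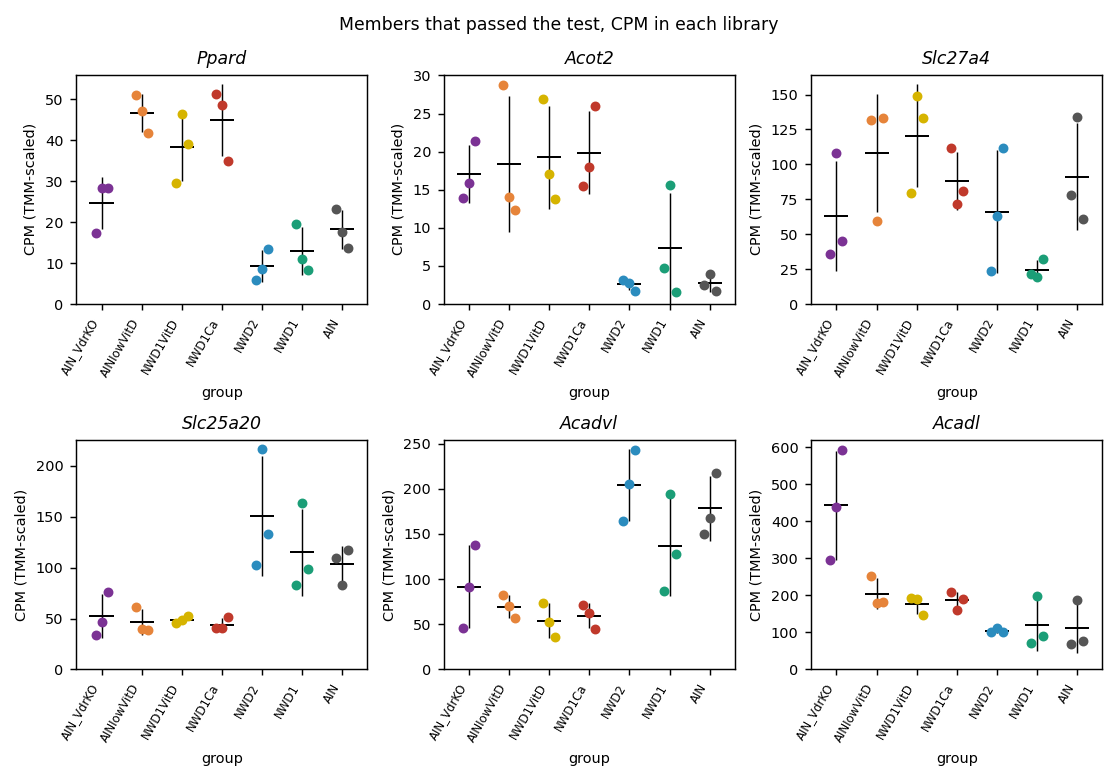
Points are the CPM (vertical axis, from 0) of 6 members in each library, by group (horizontal axis); long bars are group means and vertical lines 1 SD either side, stopped at 0. Ppard is higher and Slc25a20 and Acadvl are lower in AINlowVitD, NWD1VitD and NWD1Ca than in NWD2, NWD1 and AIN, Slc27a4 is lowest in NWD1, and Acadl is highest in AIN_VdrKO.

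The later steps are carried out by the mitochondrial trifunctional protein, of which Hadha and Hadhb encode the alpha and beta subunits. Hadha did not pass in any comparison. It had 216, 197 and 221 CPM in AIN_VdrKO, 290.03, 226 and 217 in AINlowVitD, 253, 261 and 197 in NWD1VitD and 227, 284 and 279.7 in NWD1Ca, and 234, 245 and 291 in NWD2, 125, 287 and 200.3 in NWD1 and 148, 181 and 287 in AIN. All groups overlapped in range with AIN. Hadhb had 148, 114 and 106 CPM in AINlowVitD and 129, 108 and 88.4 in NWD1VitD, against 193, 293 and 240.01 in AIN and 152, 341 and 169 in NWD1. Neither pair of groups overlapped. Hadhb fell in AINlowVitD against AIN (log2 fold change -0.98 ± 0.31 SE, adjusted p = 0.0207), lost without AIN 2 (-0.804), AINlowVitD 2 (-0.93) or AINlowVitD 3 (-0.86). It fell in NWD1VitD against NWD1 (log2 fold change -1.03 ± 0.31 SE, adjusted p = 0.0122), lost without NWD1 2 (-0.54) or NWD1VitD 3 (-0.89). The other 3 enzymes of this group, Hadh for short-chain hydroxyacyl-CoA, the thiolase Acaa2 and the dienoyl-CoA reductase Decr1, passed nowhere.

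The electron transfer flavoprotein, made of Etfa and Etfb, takes electrons from the dehydrogenases, and Etfdh passes them to ubiquinone. Etfdh had 121, 98.3 and 86.8 CPM in AINlowVitD, against 189, 235 and 272 in AIN, without overlap, and it fell under every alternative run (log2 fold change -1.18 ± 0.31 SE, adjusted p = 0.00742). In NWD1VitD against NWD1 it also fell, with overlapping groups (log2 fold change -0.82 ± 0.30 SE, adjusted p = 0.0374), a call lost in a fit of those groups alone (-0.88) and without NWD1 2 (-0.45), NWD1 3 (-0.86), NWD1VitD 2 (-0.78) or NWD1VitD 3 (-0.64). Etfb rose in NWD1Ca against NWD1, with 484, 476 and 571 CPM against 380.004, 339 and 193 (log2 fold change 0.997 ± 0.37 SE, adjusted p = 0.0451). Those groups did not overlap. In log2(TPM + 1) the sign turned (-0.29), and the call was lost without NWD1 2 (1.03), NWD1 3 (0.698) or any of NWD1Ca 1 (1.03), NWD1Ca 2 (1.04) and NWD1Ca 3 (0.91). Etfa passed nowhere.

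Among the 6 peroxisomal enzymes, Ehhadh, a bifunctional hydratase and dehydrogenase, had 42.2, 111 and 66.8 CPM in AIN_VdrKO and 123, 62.5 and 98.8 in AINlowVitD, against 189.8, 182 and 256 in AIN. Both groups lay below AIN in every library. Ehhadh fell in AIN_VdrKO against AIN (log2 fold change -1.42 ± 0.40 SE, adjusted p = 0.0251) and in AINlowVitD against AIN (log2 fold change -1.15 ± 0.38 SE, adjusted p = 0.0265). The first call was lost in a fit of those groups alone (-1.77) and without AIN 3 (-1.03), AIN_VdrKO 1 (-1.15) or AIN_VdrKO 3 (-1.36). The second was lost without AIN 1 (-1.09), AIN 3 (-0.86), AINlowVitD 2 (-0.91) or AINlowVitD 3 (-1.27).

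Acaa1b, a peroxisomal thiolase, had the smallest p of the module in NWD1 against AIN, with 1.22, 1.66 and 1.69 CPM in NWD1 and 12.7, 22.01 and 5.55 in AIN. The libraries did not overlap, and the test was not passed (log2 fold change -2.84 ± 0.75 SE, adjusted p = 0.0631), although it was without a filter on low counts (-2.84), without the term for sex (-3.14) and with DESeq2 (-2.78). It also led NWD2 against NWD1, with 2.71, 9.71 and 11.4 CPM in NWD2, again without passing (log2 fold change 2.32 ± 0.70 SE, adjusted p = 0.189) except with no filter (2.34) and with DESeq2 (2.25). In NWD1VitD, at 4.66, 10.7 and 4.75 CPM, Acaa1b rose against NWD1 (log2 fold change 2.05 ± 0.70 SE, adjusted p = 0.0263), a call lost on the log2(TPM + 1) scale (0.32) and without NWD1 1 (1.99), NWD1 3 (1.8998) or NWD1VitD 2 (1.77). It is a close paralog of Acaa1a, which holds 35.5% of its 50-base windows and passed nowhere, so the split of reads between them is uncertain. The other 3, Hsd17b4 (the second bifunctional enzyme), Scp2 (sterol carrier protein and thiolase) and Ech1 (dienoyl-CoA isomerase), passed nowhere.

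Slc27a4, a fatty acid transport protein with acyl-CoA synthetase activity, was low in NWD1, at 21.5, 19.7 and 32.3 CPM. It had 79.3, 149 and 133 CPM in NWD1VitD, 112, 71.5 and 81.05 in NWD1Ca, 24.01, 63.2 and 112 in NWD2 and 78.2, 134 and 61.1 in AIN. Of these 4 groups only NWD2 overlapped NWD1, through NWD2 1. Slc27a4 rose in NWD1VitD against NWD1 (log2 fold change 2.32 ± 0.47 SE, adjusted p = 0.000966) and in NWD1Ca against NWD1 (log2 fold change 1.51 ± 0.50 SE, adjusted p = 0.0283). On the log2(TPM + 1) scale both calls were lost (0.65 and 0.14), and that for NWD1Ca also without NWD1 2 (1.47), NWD1 3 (1.56), NWD1Ca 1 (1.302) or NWD1Ca 3 (1.57). In NWD1 against AIN it had the second smallest p without passing (log2 fold change -1.703 ± 0.47 SE, adjusted p = 0.0786), but passed with no filter on low counts (-1.71), no term for sex (-1.897) or DESeq2 (-1.64). It was second, without passing, also in NWD1VitD against NWD1Ca (log2 fold change 0.81 ± 0.49 SE, adjusted p = 1). Acsl1, an acyl-CoA synthetase, fell in NWD1VitD against NWD1 with overlapping groups (log2 fold change -0.89 ± 0.30 SE, adjusted p = 0.0258), a call lost in a fit of those groups alone (-0.93) and without NWD1 2 (-0.68), NWD1 3 (-0.66), NWD1VitD 2 (-0.9000) or NWD1VitD 3 (-0.83). Acsl3, Acsl5 and Slc27a2 passed nowhere.

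Enterocyte genes moved in some of the same comparisons. Of the 16 enterocyte genes 2 fell and none rose in NWD1 against AIN (median log2 fold change -2.15; 0.991% of all genes passed), 8 rose in NWD1VitD against NWD1 (median 1.85; 19.9% of all genes rose) and 3 rose in NWD1Ca against NWD1 (median 0.96; 15.7% of all genes rose); in NWD2 against NWD1 none passed (median 2.204). The enterocyte sum was also lower in each AIN_VdrKO library, at 2106 to 7441 CPM, than in AIN, at 7923 to 13878. The libraries with the 4 lowest enterocyte sums were NWD1 1 at 910, NWD1 2 at 1378, NWD2 1 at 1701 and AIN_VdrKO 1 at 2106 CPM. Acsl5, chosen here after its values were seen, had 224, 367, 184 and 331 CPM in AIN_VdrKO 1, NWD2 1, NWD1 1 and NWD1 2, against 924 to 1337 in AIN, where the enterocyte sum was 7923 or more. Stem cell genes ran the other way: the 13 listed genes summed to 7364 to 10308 CPM in NWD1 and 2529 to 4661 in AIN. Ehhadh did not follow these sums across the sets: it averaged 83.1 ± 6.25 CPM in NWD1VitD and 95.3 ± 26.4 in NWD1, and 94.7 ± 30.4 in AINlowVitD against 209 ± 40.7 in AIN (SD, n = 3 each). The part of these markers in the results for Acaa1b, Slc27a4 and Acsl5, and for the members called in AIN_VdrKO against AIN, was not tested.

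**Figure D4:**
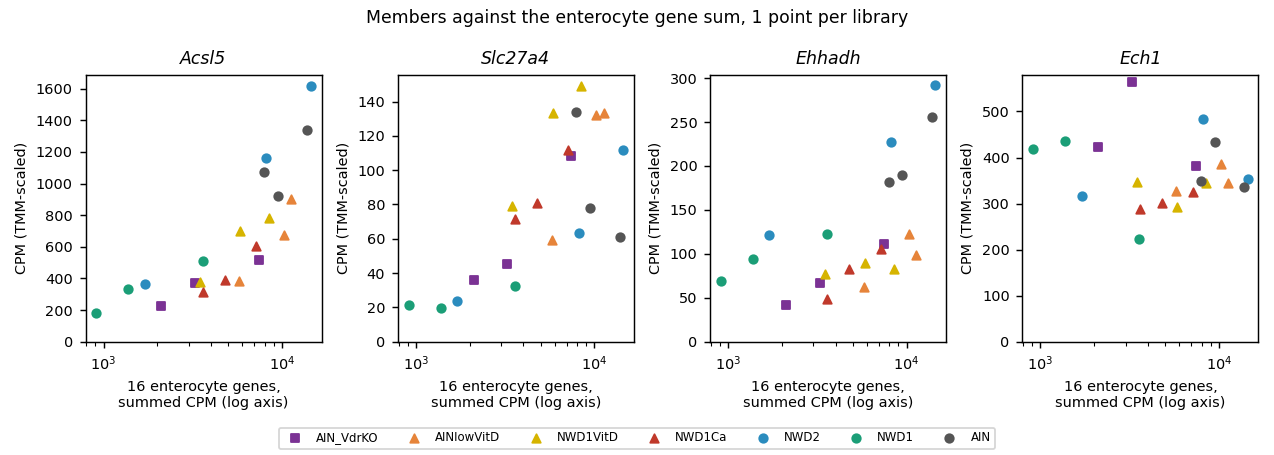
Each point is 1 library, with the summed CPM of 16 enterocyte genes on the horizontal log axis and the CPM of 1 member on the vertical axis, from 0; colours mark groups, circles the first set, triangles the second and squares AIN_VdrKO. Acsl5 and Slc27a4 are low in the libraries with the lowest enterocyte sums, Ehhadh is higher in the first set than in the second at like sums, and Ech1 shows no such order; the 4 members were chosen after their values were seen.

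Among the PPAR targets with other roles, single libraries stood out. Pdk4, the kinase that shuts off pyruvate dehydrogenase when fat is burned, had 0.993, 40.9 and 7.498 CPM in NWD1. Its levels were 2.99, 3.001 and 9.46 CPM in AIN_VdrKO, 7.26, 2.48 and 1.31 in AINlowVitD, 4.66, 7.66 and 2.55 in NWD1VitD and 1.63, 4.698 and 7.29 in NWD1Ca, with 7.76, 11.5 and 14.1 in NWD2 and 10.7, 5.97 and 4.76 in AIN. The library NWD1 2 held the highest Pdk4 value of the 21 and NWD1 1 the lowest, and Pdk4 passed nowhere. Angptl4, a secreted inhibitor of lipoprotein lipase, had 9.37, 103 and 7.35 CPM in NWD1 and 8.56, 6.18 and 77.8 in AIN_VdrKO; no other library exceeded 20.1, and it too passed nowhere. Angptl4 was chosen after its values were seen.

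**Figure D5:**
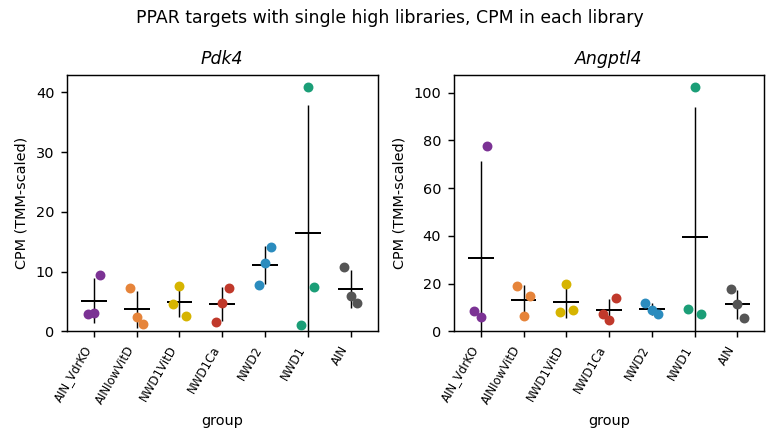
Points are the CPM (vertical axis, from 0) of Pdk4 and Angptl4 in each library, by group (horizontal axis); long bars are group means and vertical lines 1 SD either side, stopped at 0. The library NWD1 2 is the highest for both genes, and AIN_VdrKO 3 is second for Angptl4.

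Plin2, which coats lipid droplets, fell in the libraries labelled AIN_VdrKO, with 69.5, 103 and 133 CPM against 205, 183 and 194 in AIN, without overlap (log2 fold change -1.01 ± 0.31 SE, adjusted p = 0.0352). That call was lost without AIN 1 (-0.902), AIN 3 (-1.09), AIN_VdrKO 1 (-0.802) or AIN_VdrKO 2 (-1.02), and in a fit of those groups alone (-0.89). Plin2 also fell in NWD1VitD against NWD1 (log2 fold change -0.77 ± 0.28 SE, adjusted p = 0.0351), which was lost in a fit of those groups alone (-0.802) and without NWD1 2 (-0.44), NWD1VitD 2 (-0.84) or NWD1VitD 3 (-0.61). Ucp2 fell in the same comparison, with 719, 812 and 573 CPM in NWD1VitD against 1386, 1444 and 1067 in NWD1 (log2 fold change -0.88 ± 0.28 SE, adjusted p = 0.0187). No library of NWD1VitD reached NWD1, and the call was lost in a fit of those groups alone (-0.94) and without NWD1 2 (-0.81), NWD1VitD 1 (-0.89) or NWD1VitD 3 (-0.73). Vnn1, a pantetheinase, had 10.6, 5.57 and 6.48 CPM in AINlowVitD against 40.7, 14.6 and 12.4 in AIN. It fell in AINlowVitD against AIN (log2 fold change -1.51 ± 0.55 SE, adjusted p = 0.0436), with AIN 1 at 40.7 CPM above all others. Without AIN 1 its difference was -0.74 and the call was lost, as it was without AIN 3 (-1.74) or any of AINlowVitD 1 (-1.72), AINlowVitD 2 (-1.27) and AINlowVitD 3 (-1.61). In NWD1VitD against NWD1Ca, Vnn1 had the smallest p of the module, with 8.14, 15.5 and 19.9 CPM in NWD1VitD and 8.32, 7.69 and 7.26 in NWD1Ca, and did not pass (log2 fold change 1.28 ± 0.61 SE, adjusted p = 1).

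Outside the 36, among genes of ketone body metabolism, Bdh1, which interconverts the ketone bodies, fell in AINlowVitD against AIN (log2 fold change -1.34 ± 0.24 SE, adjusted p = 0.000724), AIN_VdrKO against AIN (log2 fold change -1.04 ± 0.26 SE, adjusted p = 0.014), NWD1Ca against NWD1 (log2 fold change -1.28 ± 0.27 SE, adjusted p = 0.00199) and NWD1VitD against NWD1 (log2 fold change -1.47 ± 0.24 SE, adjusted p = 0.000186). In AIN_VdrKO the Bdh1 call was lost in a fit of those groups alone, and in the other 3 it held under every alternative run.

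Genes listed as other beta-oxidation genes fell more often than they rose in the same comparisons. The list is not confined to fatty acid oxidation, as it holds Acad8, which acts in valine breakdown. Of the 21 tested from a list of 24, 1 rose and 8 fell in AINlowVitD against AIN, 1 and 3 in AIN_VdrKO against AIN, 1 and 6 in NWD1Ca against NWD1, and 1 and 6 in NWD1VitD against NWD1; none passed elsewhere. In the same order 15% and 16.3%, 7.43% and 5.08%, 15.7% and 14.9%, and 19.9% and 20.6% of all genes rose and fell. Under log2(TPM + 1) these splits became 0 and 18, 1 and 1, 1 and 14, and 0 and 14, and in AIN_VdrKO against AINlowVitD 6 rose and 0 fell. With TMM their median log2 fold changes were -0.63, -0.43, -0.19 and -0.33, against -0.10, -0.01, -0.04 and -0.03 for all genes. The gene that rose was Mlycd each time, which removes malonyl-CoA, the inhibitor of the carnitine shuttle. Its log2 fold change was 1.96 in AINlowVitD against AIN (adjusted p = 0.00277), 2.04 in AIN_VdrKO against AIN, 2.09 in NWD1Ca against NWD1 and 2.203 in NWD1VitD against NWD1. On the log2(TPM + 1) scale the first and the last of these calls were lost (0.78 and 0.83), and without AIN 3 the second. Acad8, a dehydrogenase of valine breakdown, fell in AINlowVitD against AIN (log2 fold change -1.27 ± 0.23 SE, adjusted p = 0.000733), NWD1Ca against NWD1 (log2 fold change -1.18 ± 0.25 SE, adjusted p = 0.00235) and NWD1VitD against NWD1 (log2 fold change -1.64 ± 0.23 SE, adjusted p = 6.19e-05), and kept these calls under every alternative run. Decr2, the peroxisomal dienoyl-CoA reductase, fell in AIN_VdrKO against AIN (log2 fold change -1.95 ± 0.34 SE, adjusted p = 0.00109), a call lost only in a fit of those groups alone.

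Of 14 tested genes from a list of 18 other PPAR targets, 9 rose and 1 fell in NWD1VitD against NWD1, 5 rose in NWD1Ca against NWD1, 2 rose in AINlowVitD against AIN, 1 rose in AIN_VdrKO against AIN and 1 fell in AIN_VdrKO against AINlowVitD. Of all genes 19.9% rose and 20.6% fell in the first of these comparisons, 15.7% rose in NWD1Ca against NWD1, 15% in AINlowVitD against AIN and 7.43% in AIN_VdrKO against AIN, and 3.06% passed in AIN_VdrKO against AINlowVitD. On the log2(TPM + 1) scale these splits became 2 and 3, 2 and 3, 1 and 5, 0 and 0, and 0 and 0. Fabp1 and Fabp2, the liver and intestinal fatty acid binding proteins, had the smallest p of the list in both comparisons with NWD1. Beside Fabp1, Acot4, a peroxisomal thioesterase, rose in AINlowVitD against AIN (log2 fold change 1.88 ± 0.55 SE, adjusted p = 0.0149), a call lost in 6 of 16 alternatives, and Me1, the cytosolic malic enzyme, was the gene that rose in AIN_VdrKO against AIN (log2 fold change 2.398 ± 0.63 SE, adjusted p = 0.0176), lost in 5 of 16. Fabp1 had 39238, 10519 and 31798 CPM in AINlowVitD, 18604, 31759.6 and 18244 in NWD1VitD and 22775, 12961 and 17778 in NWD1Ca. It had 5121, 3136 and 3909 CPM in AIN_VdrKO, 489, 3060.2 and 3152 in NWD2, 379.8, 527 and 472 in NWD1 and 3888, 3181 and 1665 in AIN. Each second-set library lay above each of the other 12. Fabp1 rose in AINlowVitD against AIN (log2 fold change 3.32 ± 0.60 SE, adjusted p = 0.000736), NWD1Ca against NWD1 (log2 fold change 4.95 ± 0.69 SE, adjusted p = 0.000126) and NWD1VitD against NWD1 (log2 fold change 5.58 ± 0.67 SE, adjusted p = 1.65e-05) under every alternative run. Its fall in AIN_VdrKO against AINlowVitD (log2 fold change -2.48 ± 0.60 SE, adjusted p = 0.0298) was lost in 9 of 15 alternatives, among them leaving out AINlowVitD 1, AINlowVitD 3, AIN_VdrKO 2 or AIN_VdrKO 3, with values of -3.05 to -1.29 over all 15. Fabp2 rose in NWD1Ca against NWD1 (log2 fold change 3.08 ± 0.67 SE, adjusted p = 0.00253) and in NWD1VitD against NWD1 (log2 fold change 3.71 ± 0.63 SE, adjusted p = 0.000219). Both genes are also abundant in enterocytes, whose summed markers are given above.

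PPARs bind paired half-sites spaced by 1 base, and Fabp1 is shown because it alone of the 30 members and 44 related genes searched carries such a pair near its start. The search used the letters AGGNCANAGGNCA on both strands, in RefSeq windows (GRCm38.p6) of 250 bases before to 50 after each start. Of 27025 genes with a window 122 (0.451%) held it, of the 30 members with a window 0, and of 44 related genes 1. The Fabp1 match lies on the opposite strand, with its first base 67 bases before the start. The 250 bases before the start, at chr6:71199629-71199878 on the plus strand, are given with the match in capitals.
Fabp1 upstream: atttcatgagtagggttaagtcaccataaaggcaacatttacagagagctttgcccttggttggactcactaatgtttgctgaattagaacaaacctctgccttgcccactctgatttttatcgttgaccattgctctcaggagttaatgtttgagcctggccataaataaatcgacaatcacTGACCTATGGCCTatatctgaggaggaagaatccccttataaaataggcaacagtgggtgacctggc
A match of letters is a description and not a binding site, and its absence says only that these letters are not in the window.

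Among 10 other receptors and coregulators, 2 rose and 1 fell in AINlowVitD against AIN, 2 rose in AIN_VdrKO against AIN, 2 rose and 1 fell in NWD1Ca against NWD1, and 3 rose and 2 fell in NWD1VitD against NWD1. Of all genes 15% and 16.3%, 7.43% and 5.08%, 15.7% and 14.9%, and 19.9% and 20.6% rose and fell in these comparisons. With log2(TPM + 1) values these became 0 and 4, 1 and 0, 0 and 3, and 0 and 5. Ncor1, a corepressor of nuclear receptors, rose in all 4 (1.37, 1.52, 1.55 and 1.46 on the log2 scale), with adjusted p of 0.000436, 0.000659, 0.00039 and 0.000132. Its difference in log2(TPM + 1) was 0.20 in AINlowVitD against AIN, 1.22 in AIN_VdrKO against AIN, 0.24 in NWD1Ca against NWD1 and -0.12 in NWD1VitD against NWD1, and only that in AIN_VdrKO passed; the edgeR call in AIN_VdrKO was lost in a fit of those groups alone. Nrip1, a corepressor of nuclear receptors, rose in AINlowVitD against AIN (log2 fold change 0.74 ± 0.23 SE, adjusted p = 0.0178) and AIN_VdrKO against AIN (log2 fold change 0.92 ± 0.25 SE, adjusted p = 0.0216), each call lost in 7 of 16 alternatives, and in the first its sign turned with log2(TPM + 1) (-0.38). Esrra, an orphan receptor that drives mitochondrial genes, rose in NWD1Ca against NWD1 (log2 fold change 1.14 ± 0.36 SE, adjusted p = 0.0233) and NWD1VitD against NWD1 (log2 fold change 1.402 ± 0.33 SE, adjusted p = 0.00271), and on the log2(TPM + 1) scale turned to -0.10 and -0.12. The first of these calls was also lost without NWD1 2, NWD1 3 or NWD1Ca 1.

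Some of these calls were lost under further alternatives. Leaving out AIN 1, AIN 2 and NWD1 1 together lost those of Slc25a20 (-1.21), Hadhb (-0.904) and Vnn1 (-0.91) in AINlowVitD against AIN, Plin2 in AIN_VdrKO against AIN (-0.99), and Acaa1b (2.02), Acads (-0.93) and Acot2 (1.3003) in NWD1VitD against NWD1. Leaving out NWD1 1 and NWD1 2 together lost those of Slc27a4 (1.45) and Acadvl (-1.099) in NWD1Ca against NWD1. In NWD1VitD against NWD1 it lost those of Slc25a20 (-1.06), Acadvl (-1.195), Hadhb (-0.55), Ucp2 (-0.596), Acaa1b (2.35), Acads (-0.54), Plin2 (-0.24) and Etfdh (-0.74). The Etfb call was also lost with DESeq2's size factors in edgeR (1.04), no filter (0.94), no term for sex (0.75) and offsets for gene length (0.38), that of Plin2 in AIN_VdrKO against AIN with no filter (-1.01) and in NWD1VitD against NWD1 with length offsets (-0.67). That of Etfdh in NWD1VitD against NWD1 was lost with a replicate block (-0.78).

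Over all 9 comparisons, 29 pairs of a member and a comparison passed, spread over 16 members. The other 20 members passed nowhere. Of all genes, 31.3% passed in AINlowVitD against AIN and 12.5% in AIN_VdrKO against AIN. The share was 30.6% in NWD1Ca against NWD1 and 40.5% in NWD1VitD against NWD1. In 26 of the 29 pairs the groups did not overlap. Overlap was counted only among pairs that had passed, and not over all genes, so that number is not separate evidence of a difference. Acadvl, Acot2, Slc25a20 and Ppard passed in 3 comparisons each, more than any other member.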

How the data were processed

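Crypts were dispersed and sorted, then SMART-Seq v4 cDNA and Nextera XT libraries were prepared, per the labels' protocols; this kit does not mark strand. The authors deposited whole-number read counts for 37310 genes and 92 spike-ins, and TPM values for the same genes. STAR 2.4.2a, HTSeq 0.6.1, edgeR and genome build mm9 are named, per the submitters' processing notes; the sources used here do not state their settings. The deposited TPM values are the deposited counts per gene length, rescaled in each library: over 6979 genes the centred log2 ratio of count to TPM had an SD of at most 6.4e-10 between libraries.

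From the deposited counts, 16050 genes kept by filterByExpr were tested in R 4.3.3 with edgeR 4.0.16 (quasi-likelihood F test), in 1 fit of 21 libraries with a mean per group, a term for sex and TMM scaling. The 9 comparisons were adjusted by Benjamini-Hochberg over all genes, with a threshold of 0.05. Alternatives used limma 3.58.1 and DESeq2 1.42.0. Fold changes are the group named first over the group after it. Each p-value weighs a difference between groups against the spread between libraries within groups. In the main fit that spread was estimated over all 7 groups, not only the groups compared.

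Members and gene lists were chosen with earlier results of these data known. Values in every library are given for up to 6 members with the smallest p among those passing in a comparison, for the 2 smallest where fewer than 3 passed, and for Ppara, Ppard, Cpt1a, Hadha and Pdk4; 1 related gene is not reported here; of each related list up to 2 genes with the smallest p are named. Of 57 related genes listed, 56 matched a row. Transcript and promoter sequences come from GENCODE and RefSeq for a later build, so no mm9 position is printed.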

Additional observations from a re-analysis of the deposited data

How the results depend on the processing

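Numbers of members past the threshold were compared over the alternatives, with the share of all genes called in the same fit in brackets. Without a filter on low counts they were 8 in NWD1 against AIN (3.47%), 8 in NWD2 against NWD1 (3.02%), 7 in AIN_VdrKO against AIN (8.55%), 10 in NWD1Ca against NWD1 (18%) and 4 in AIN_VdrKO against AINlowVitD (5.19%). These shares are over 27918 genes, a larger base than in the filtered fits. Without the term for sex they were 2 in NWD1 against AIN (2.39%), 10 in AIN_VdrKO against AIN (17.4%) and 8 in NWD1Ca against NWD1 (39.5%). DESeq2 gave 5 in NWD1 against AIN (5.43%), 2 in NWD2 against NWD1 (2.15%), 10 in AIN_VdrKO against AIN (19%) and 8 in NWD1Ca against NWD1 (35.4%). Fits of the 2 groups alone gave 1 in AIN_VdrKO against AIN (2.01%) and 7 in NWD1VitD against NWD1 (34.4%). With its sex term, the first of these fits rested on AIN 3, the only male of AIN. Without AIN 1, AIN 2 and NWD1 1 there were 12 in AIN_VdrKO against AIN (23.4%) and 11 in NWD1Ca against NWD1 (41.6%), and without NWD1 1 and NWD1 2 there were 4 in NWD1VitD against NWD1 (31.3%). On log2(TPM + 1) and log2(TPM + 0.1) there were 23 (50.6%) and 23 (53.9%) in AINlowVitD against AIN, 7 (8.32%) and 7 (8.19%) in AIN_VdrKO against AIN, 23 (56.6%) and 23 (56.8%) in NWD1Ca against NWD1, 26 (64.6%) and 25 (65.5%) in NWD1VitD against NWD1, and 9 (32.5%) and 10 (39.5%) in AIN_VdrKO against AINlowVitD; of the calls described by gene, both scales lost the same ones. Leaving out 1 replicate gave 0 to 1 in NWD2 against AIN (0% to 5.69%), 0 to 3 in NWD2 against NWD1 (0% to 2.18%), 4 to 11 in AINlowVitD against AIN (20.2% to 30.9%), 0 to 7 in AIN_VdrKO against AIN (6.22% to 16.7%), 2 to 9 in NWD1Ca against NWD1 (15.8% to 36.3%), 5 to 12 in NWD1VitD against NWD1 (30.4% to 42.8%), 0 to 3 in AIN_VdrKO against AINlowVitD (0.829% to 12.1%), and 0 in NWD1 against AIN (0% to 1.72%) and NWD1VitD against NWD1Ca (0%). The direction turned for Cpt1a in NWD2 against AIN without AIN 1, AIN 2 and NWD1 1 (-0.25), for Etfb in NWD1Ca against NWD1 on both TPM scales (-0.29), and for Acadm in AIN_VdrKO against AINlowVitD on both (0.33). With offsets for gene length 1921 genes rose and 3240 fell in AINlowVitD against AIN (32.2%), where 2 members rose and 8 fell (27.8%). In AIN_VdrKO against AINlowVitD 233 genes rose and 360 fell (3.69%). The split of members was 2 and 4 in AIN_VdrKO against AIN, 16.7% of the module against 13.1% of all genes. In NWD1Ca against NWD1 it was 3 and 3, or 16.7% against 31.1% of all genes. The cause of these changes was not tested, apart from the changed set of genes or libraries, or the changed scaling, that an alternative itself makes.

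Replicate numbers were not used to pair the libraries in the main fit, and no comparison had every same-numbered pair correlated above 0.1. Those correlations ran from -0.191 to 0.409. Unlike-numbered pairs were not correlated, so these values cannot exclude pairing. With the replicate number as a replicate block 9 members (25%) passed in AINlowVitD against AIN, where 31.9% of all genes did. There were 6 (16.7%) in AIN_VdrKO against AIN, against 12.9% of all genes. In NWD1Ca against NWD1 there were 6 (16.7%, against 31.1%) and in NWD1VitD against NWD1 11 (30.6%, against 41.6%). The number was 0 in NWD1 against AIN (0.617% of all genes), NWD2 against AIN (0%) and NWD2 against NWD1 (0.00623%). It was also 0 in NWD1VitD against NWD1Ca (0%) and AIN_VdrKO against AINlowVitD (4.86%). With 3 libraries a group and spike-ins that differ between the sets, differences across the sets cannot be given to diet. Differences of AIN_VdrKO from AIN or AINlowVitD, where spike-ins differed too, cannot be given to the label.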
